A study of Mus musculus with 4 samples.

Results

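The plasminogen activator genes and the serpins that hold their proteases in check were followed in NIH3T3 cells after Timp1 was targeted. The members were Plau, Plat, Plaur, Plg, Serpine2, Serpinb2 and Serpinf2, taken by gene name in the array files. They were read by 11 of the 56605 non-control probes, so that 7 of the 37074 gene names on the array were covered. NIH3T3 is an established fibroblast line raised from mouse embryos, although the labels call the cells dermal fibroblasts. Both groups were kept in medium with 2% serum and were transfected by apatite nanoparticles, sCA in the labels. One group received a control siRNA (siControl, n = 2 arrays) and the other an siRNA against Timp1 (siTIMP1, n = 2 arrays). No untransfected cells were analysed here, so the carrier and the transfection were common to all 4 arrays.

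The plasminogen system is a cascade of extracellular proteolysis. Urokinase (Plau) and tissue-type activator (Plat) cut the zymogen plasminogen (Plg) into plasmin, which digests fibrin, cleaves matrix glycoproteins and activates some metalloproteinase zymogens. The urokinase receptor (Plaur), a glycolipid-anchored surface protein, concentrates urokinase at the cell surface. Serpins stop the cascade by trapping the protease in a covalent complex: Serpine2 (protease nexin-1) acts on thrombin, urokinase and tissue-type activator, Serpinb2 (plasminogen activator inhibitor type 2) on urokinase, and Serpinf2 (alpha-2-antiplasmin) on plasmin. Plasminogen and Serpinf2 are secreted chiefly by the liver, whereas fibroblasts commonly make the activators and Serpine2.

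Timp1, the targeted gene, had processed signals of 53297 and 67559 in siControl and of 1840 and 1492 in siTIMP1. Its log2 fold change was -5.22 (SE 0.158, limma adjusted p = 0.0105), lower on both siTIMP1 arrays as the labels have it. The 4 arrays lay on 1 slide with siControl and siTIMP1 at separate positions, so slide position and group cannot be told apart. The labels do not name separate cultures, and p-values therefore measure only the spread between these arrays, which may be technical. All 8 fibroblast markers examined were well above background on every array. None of the 4 hepatocyte markers (Alb, Apoa1, Ttr, Ahsg) was so on any array. Of 6 endothelial markers, 1 (Vwf, dim with signals from 9.97 to 20.2) was so on every array, and Cdh5, Kdr, Tek and Cldn5 on none. Of 5 epithelial and keratinocyte markers, 1 (Krt14, signals from 42.5 to 56.3) was so on every array, and Epcam, Cdh1 and Krt5 on none. Of 5 leukocyte markers on the array, Ptprc, Csf1r, Itgam and Cd14 had at least 1 probe well above background on every array, and Adgre1 had none. Their summed signal, each gene at its brightest probe, ranged from 3400 to 3430 in siControl and from 2870 to 3130 in siTIMP1. Itgam gave 2053 and 2056 of it in siControl and 1711 and 1681 in siTIMP1. Log2 fold changes were -0.322 for Itgam, -0.29 for Csf1r, -0.155 for Cd14 and 0.008 for Ptprc. None had a limma adjusted p under 0.05. The other Itgam probe was at background, and probes on the Ptprc mRNA had signals from 1.63 to 3.01. The part of these markers in the results was not tested. Whether fewer cells of a type or less RNA per cell lay behind any value cannot be told apart in such bulk RNA.

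The array reads each gene through probes of 60 bases, and for 3 genes the choice of probe decided whether a transcript was seen. A stretch of 30 bases of both probes is shown for Plau, Plat and Serpine2, and of the probe for Plaur, each 5′ to 3′ as in the array files. Capitals mark the pentamer ATTTA, the core of AU-rich elements in short-lived mRNAs. Probe 1 is the one that was well above background.
Plau probe 1: tacatacttaatATTTAataattatgttct
Plau probe 2: ctgaaagtgactatctctatccaaagaacc
Plat probe 1: aaggttacgaattacctagactggattcac
Plat probe 2: atgatggacgttATTTAgagaaacctatta
Plaur: ccctcgtgttgtcttctttggacctcagtt
Serpine2 probe 1: cgtgtgttgtttctgttgctgttgcttttg
Serpine2 probe 2: acaataattataccctgttggcaacATTTA
Searched on the printed strand only and over whole probes, ATTTA was present in 3 of the 11 member probes, those whose stretch shows it, and in 8.08% of all 56605 probes. A match describes the letters of a probe, not a working element.

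Coordinates follow the array files and the mouse build mm9. Both Plau probes are assigned to the same mRNA. Probe 1 lies at chr14:21662487-21662546 on the plus strand, from base 2219 of the mRNA. Probe 2 starts at base 1073, and its coordinates (chr14:21659855-21660221) span 367 bases, 307 more than the probe holds, so that it reads across a gap in the genome. The Plat probe that gave signal lies at chr8:23892531-23892590 in the Plat mRNA. The other, at chr8:23886301-23886360, is assigned to a cloned cDNA of the gene. Plaur was read at chr7:25260569-25260628. Serpine2 probe 1 lies on the minus strand at chr1:79790914-79790973 in its mRNA, and probe 2 at chr1:79854083-79854142 in another annotated transcript. Whether each probe lies in coding or untranslated sequence was not analysed here.

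Of the 11 probes, 4 were well above background on all 4 arrays, a flag set by the scanner software when a spot clearly exceeds its local background. They were 1 probe each for Plau, Plat, Plaur and Serpine2, and only these could be tested. The control fibroblasts therefore gave signal for both activators, the urokinase receptor and protease nexin-1. The other 7 probes had signals of at most 18.5. No level was compared between probes, since each binds its target with its own efficiency.

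**Figure D1:**
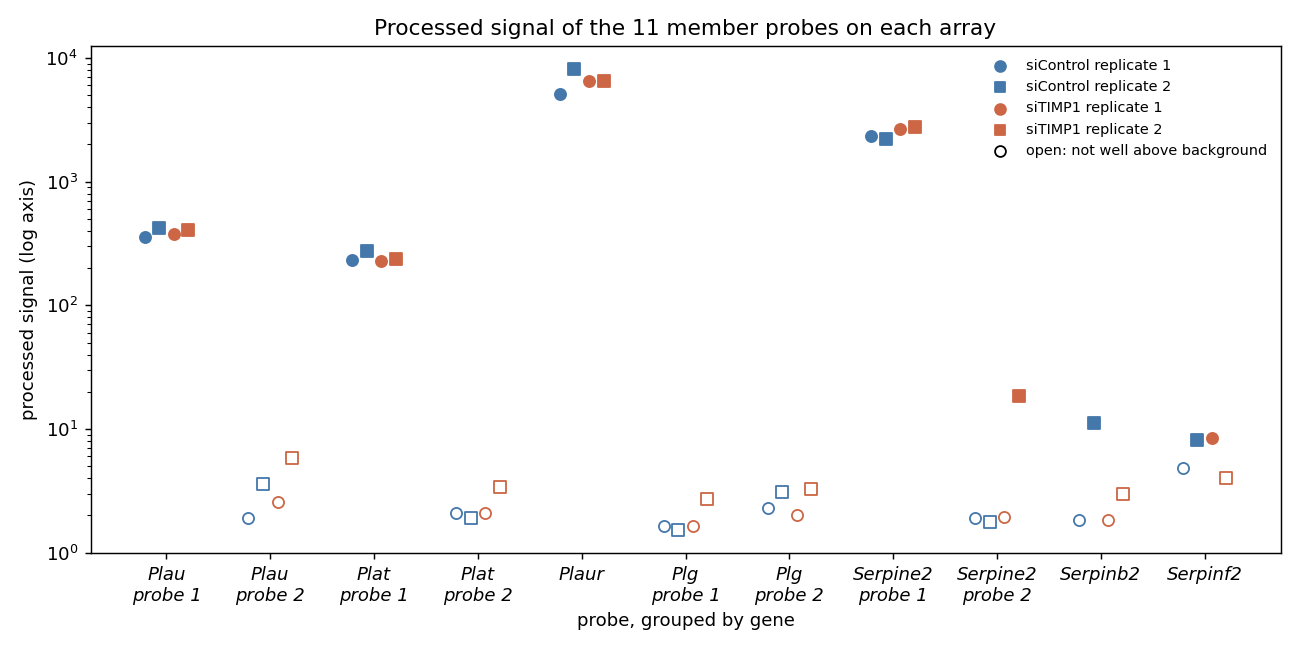
Processed signal (log axis) of the 11 member probes on each array, with siControl in blue, siTIMP1 in orange, replicate 1 as circles and replicate 2 as squares. Filled symbols are well above background: 4 probes are filled on all 4 arrays, and the other 7 have signals of 18.5 or less.

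Plau, the urokinase gene, had processed signals of 357.5 and 423 in siControl and of 377 and 408 in siTIMP1 on probe 1. Both siTIMP1 arrays fell between the siControl arrays, so the groups overlapped. On the normalised log2 scale, where 0 is the 75th percentile of an array, the means were 1.08 ± 0.195 (SD, n = 2) and 1.05 ± 0.0832 (SD, n = 2). The log2 fold change of siTIMP1 over siControl was -0.03 (SE 0.123), a ratio of 0.977 with a 95% interval from 0.785 to 1.22 (limma adjusted p = 0.899). The sign turned without siControl replicate 2 (0.105) and without siTIMP1 replicate 1 (0.025). Probe 2 had signals of 1.92 and 3.60 in siControl and of 2.57 and 5.79 in siTIMP1, and none was well above background. Why probes of 1 mRNA differed was not tested.

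Plat, which encodes the tissue-type activator, had signals of 233 and 276 in siControl and of 228 and 238 in siTIMP1. siControl replicate 2 was the highest array and the other three lay close together, with the groups overlapping. The log2 fold change was -0.17 (SE 0.124), a ratio of 0.891 with an interval from 0.714 to 1.11 (limma adjusted p = 0.500). Leaving out siControl replicate 1 gave -0.31 and leaving out siControl replicate 2 gave -0.03, neither past the threshold (limma adjusted p = 0.193 and 0.921). Probe 2, on the cloned cDNA, ranged from 1.90 to 3.39 and was at background throughout.

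Plaur, the receptor gene, had the widest spread inside a group among the 4 tested member probes. Its signals were 5160 and 8158 in siControl and 6487 and 6542 in siTIMP1. The siTIMP1 arrays nearly coincided, and both lay between the siControl arrays. The siControl arrays were 0.69 apart on the log2 scale, a gap that 6.07% of the 26015 tested probes matched or exceeded, whereas the siTIMP1 arrays were 0.01 apart. The log2 fold change was -0.04 (SE 0.223), with an interval of the ratio from 0.655 to 1.45 (limma adjusted p = 0.937). Its direction turned with the siControl array used. Without siControl replicate 1 the log2 fold change was -0.39, and without siControl replicate 2 it was 0.31. Each of these fits drops a siControl array, so the gap of 0.69 no longer enters the spread.

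Plg, the zymogen itself, gave no signal above background. Probe 1, on a cloned cDNA at chr17:12584105-12584164, had signals between 1.52 and 2.73. Probe 2, on the plasminogen mRNA at chr17:12591031-12591090, had signals between 2.03 and 3.28. On both probes the highest array was siTIMP1 replicate 2, where the dimmest signal called well above background was also the highest of the 4 arrays, at 13.1 against 7.1 to 7.97.

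Among the serpins, Serpine2 was the member whose arrays separated by group. Its signals were 2334 and 2220.2 in siControl and 2658 and 2792 in siTIMP1, both siTIMP1 arrays being above both siControl arrays. The normalised log2 means were 3.63 ± 0.0278 (SD, n = 2) and 3.84 ± 0.0515 (SD, n = 2). The log2 fold change was 0.21 (SE 0.0634), a ratio of 1.16 with a 95% interval from 1.04 to 1.30. Its unadjusted limma p was 0.0193 and its adjusted p 0.195, so the difference failed the correction over all probes. A fold change of at least this size was found for 41.1% of tested probes. Leaving out 1 array at a time kept the sign, with log2 fold changes from 0.18 to 0.25 and limma adjusted p-values from 0.150 to 0.550. Probe 2, on the other transcript, was well above background on siTIMP1 replicate 2 alone, with a signal of 18.5, and had 1.92 and 1.76 in siControl and 1.95 on siTIMP1 replicate 1.

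Serpinb2, an inhibitor of urokinase, was at background on 3 arrays. Its probe, at chr1:109421496-109421555, had signals of 1.83 and 11.2 in siControl and of 1.82 and 2.97 in siTIMP1, and only siControl replicate 2 was well above background. Serpinf2, the plasmin inhibitor, had 4.80 and 8.16 in siControl and 8.39 and 4.02 in siTIMP1 at chr11:75245252-75245311 (minus strand). It was well above background on siControl replicate 2 and on siTIMP1 replicate 1, so detection did not follow the groups. Neither gene was tested, because the filter asked for both arrays of a group. Fitted without that filter, the 7 dim probes had unadjusted limma p-values from 0.134 to 0.866.

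**Figure D2:**
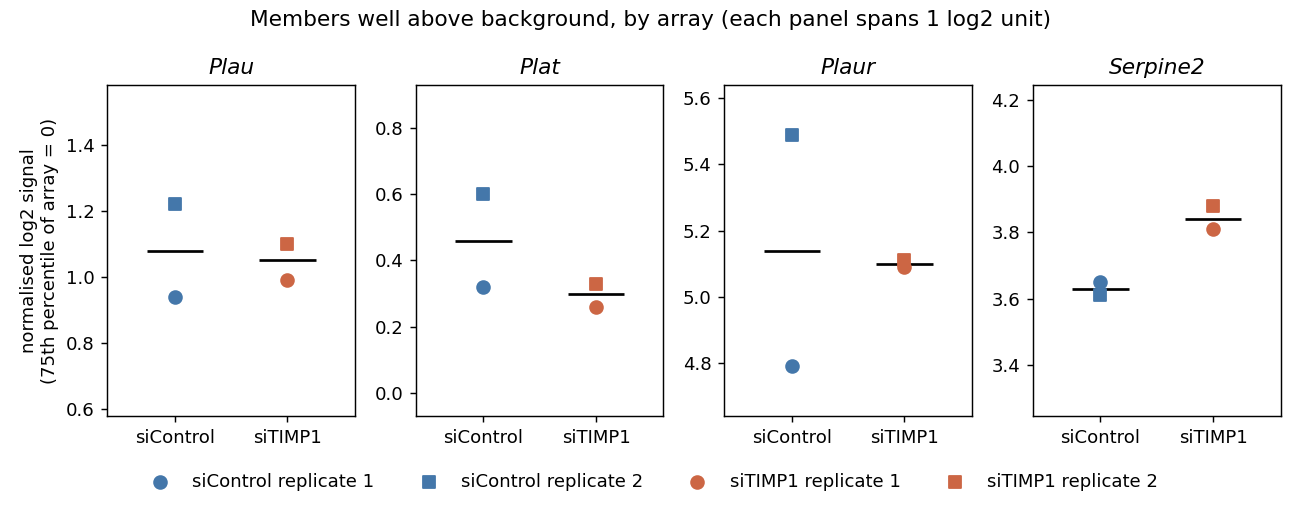
Normalised log2 signal of the 4 tested members on each array, with 0 at the array's 75th percentile, black lines at group means and 1 log2 unit per panel. The siControl points of Plaur are 0.69 apart and enclose both siTIMP1 points, while for Serpine2 both siTIMP1 points lie above both siControl points.

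No member passed the threshold of an adjusted p under 0.05 in limma, in either direction, where 0.688% of the 26015 tested probes did. At an unadjusted p under 0.05, 1 of the 4 members passed, Serpine2, beside 18.4% of all tested probes. The groups did not overlap for the same single member, beside 53.0% of all tested probes. The median log2 fold change over the 4 tested members was -0.036, and over all tested probes it was 0.0189. For Plau, Plat and Plaur the distance between the siControl arrays exceeded that between the group means, which was also so for 46.1% of all tested probes.

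**Figure D3:**
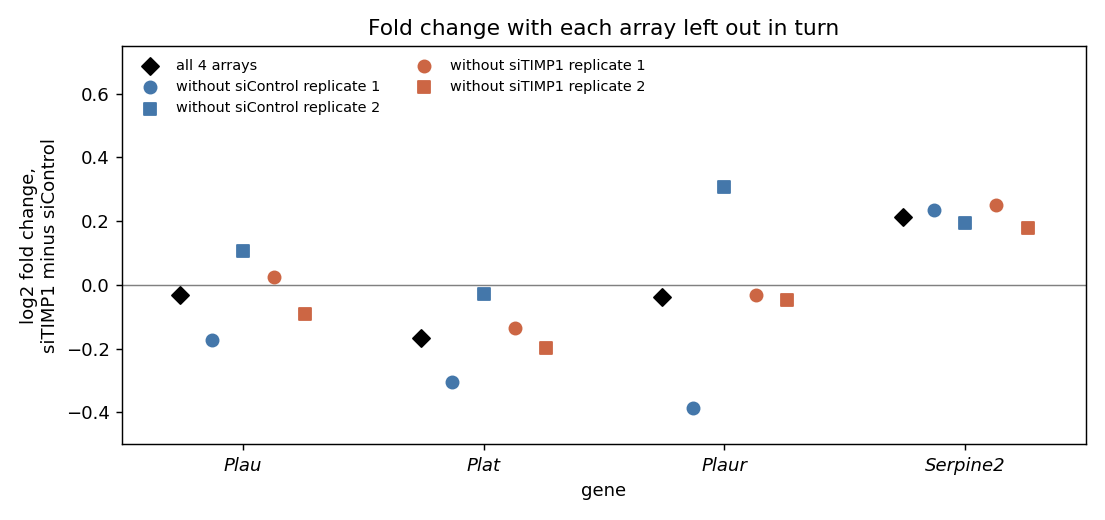
Log2 fold change of siTIMP1 over siControl for the 4 tested members, with all arrays (diamonds) and with each array left out. Plaur moves from -0.39 to 0.31 when 1 or the other siControl array is removed, while Serpine2 stays between 0.18 and 0.25.

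The genes whose centred values lay closest to a member over the 4 arrays were found among 11547 genes with a symbol that were well above background on every array. The measure was the root mean square difference on the log2 scale. For Plau they were Fam210b (0.00394), Crlf3 (0.00836) and Sdc4 (0.00916), and for Plat they were Slc16a10 (0.00897), Tmtc4 (0.0121) and Suz12 (0.0126). For Plaur they were Faim2 (0.0218), Plin2 (0.0264) and Itga8 (0.0412), and for Serpine2 they were Bcorl1 (0.00387), Mesdc2 (0.00424) and Nras (0.00627). Closeness was common: 1688 genes lay within 0.1 of Plau, 1135 within 0.1 of Plat and 3558 within 0.1 of Serpine2, against 114 for Plaur.

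Other genes of the system were taken from 5 lists. Of 72 on the array, 42 could be tested. None passed the threshold, where 0.0850% of the 17647 genes tested rose and 0.703% fell by limma. At an unadjusted limma p under 0.05, 6 of the 42 were higher and 6 lower in siTIMP1, beside 11.9% higher and 7.99% lower of all genes tested. Their median log2 fold change was 0.06, against 0.025 over all genes tested.

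Receptors that hold plasminogen at the cell surface were all 5 well above background, and none passed. Anxa2 (annexin A2) and its partner S100a10 had log2 fold changes of 0.05 and 0.06. The other tested probe of each gene had a larger value, 0.23 for Anxa2 and 0.16 for S100a10. Plgrkt, a transmembrane plasminogen receptor, had 0.13 and Krt8, a keratin that binds plasminogen, had 0.55 with an SE of 0.386. Krt8 was dim, with signals from 19.2 to 49.5, and its other tested probe had 0.20. The median of this list was 0.061. NIH3T3 cells thus gave signal for plasminogen receptors but not for plasminogen.

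Endocytic receptors that clear protease and inhibitor complexes, and integrins that work with the urokinase receptor, had 13 of 15 members tested and no call, with a median of 0.084. Lrp1, the main clearance receptor, had signals of 1661 and 1635 in siControl and of 1358 and 1537 in siTIMP1, a log2 fold change of -0.235 (limma adjusted p = 0.247). Its other tested probes, dim with signals from 15.3 to 40.1, had 0.09 and -0.21. Igf2r, which binds the urokinase receptor, had -0.20. The integrin alpha V chain Itgav had 0.22. Its other tested probe was dim, with signals from 21.4 to 26.5, and had -0.18. The mean of the Itgav probes, which weighs the dim probe equally, was 0.02. Itgam, an integrin of leukocytes, had -0.32, its other probe being at background. The clearance receptor Vldlr, chosen after its values were seen, had signals of 331 and 138 in siControl and of 389 and 358 in siTIMP1. Its log2 fold change of 0.76 missed the threshold (limma adjusted p = 0.368). It was 1.38 without siControl replicate 1 (limma adjusted p = 0.00678) and 0.14 without siControl replicate 2 (limma adjusted p = 0.530).

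Of 15 other serpins 9 were tested, with a median of 0.044. Serpinb8, an intracellular serpin, had signals of 4873 and 4511 in siControl and of 6102 and 5944 in siTIMP1, so both siTIMP1 arrays were higher. Its log2 fold change of 0.32 (SE 0.0578) had an unadjusted limma p of 0.00265 and an adjusted p of 0.108. Serpinb9, the granzyme B inhibitor, had -0.61, Serpinb1a, an inhibitor of neutrophil proteases, -0.50 and Serpina3n 0.27. Without siControl replicate 1, Serpinb8 had 0.36 and Serpinb9 had -0.82. Without siControl replicate 2, Serpinb8 had 0.28 and Serpinb9 had -0.395.

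Clotting and clot lysis genes were mostly dim, and 6 of 25 were tested, with a median of -0.077. Tissue factor (F3), which starts clotting, had a log2 fold change of -0.13, the thrombin receptor F2r had 0.13 and the serine protease Prss23 had 0.47 (limma adjusted p = 0.175). Procr, the endothelial receptor of protein C, had signals of 2092 and 4616 in siControl and of 2108 and 1848 in siTIMP1. siControl replicate 2 thus stood apart from the other three. Procr had a log2 fold change of -0.70 (limma adjusted p = 0.380). Without siControl replicate 1 it was -1.29, and without siControl replicate 2 it was -0.11.

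Growth factors that the activators or plasmin process, and their receptors, had 9 of 12 members tested and a median of 0.089. Pdgfc, a ligand that tissue-type activator can cut into its active form, had signals of 2178 and 1989.8 in siControl and of 2644 and 2435 in siTIMP1. Its log2 fold change was 0.24 (limma adjusted p = 0.210). Its receptor gene Pdgfra had 1054.5 and 898 in siControl and 587 and 506 in siTIMP1, and both siTIMP1 arrays lay below both siControl arrays. The log2 fold change was -0.88 (SE 0.116), with an adjusted p of 0.0618 in limma. Other Pdgfra probes had -0.40 and -0.20, the latter dim with signals from 9.35 to 11.2. Without siControl replicate 1 or 2 the value was -0.78 or -0.98. Without siTIMP1 replicate 1 or 2 it was -0.99 or -0.775. Bdnf, whose precursor plasmin can cleave, had 0.26 and Vegfa had 0.31, neither past the threshold. Other tested Vegfa probes had 0.39, 0.12 and 0.155, and the groups overlapped on the probes with 0.12 and 0.155.

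**Figure D4:**
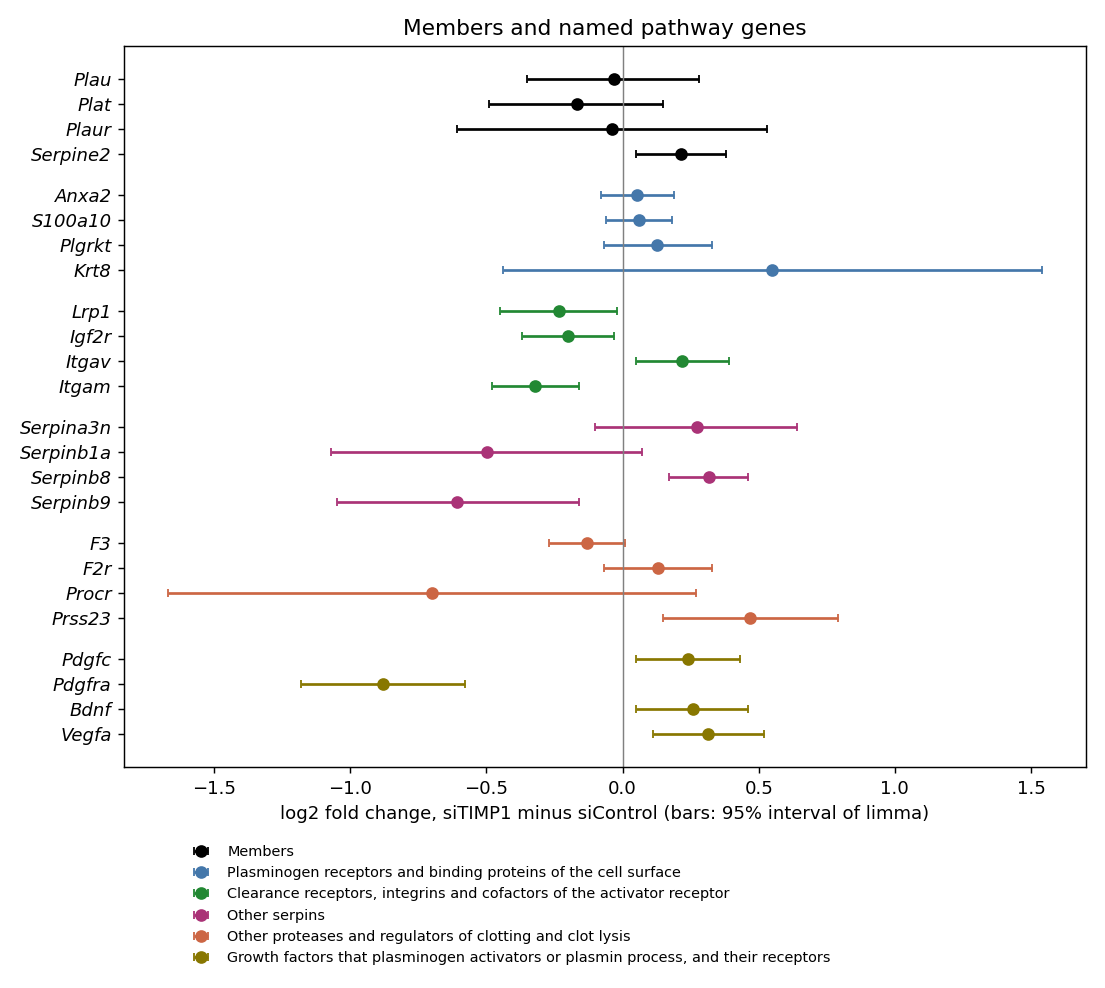
Log2 fold change of siTIMP1 over siControl with its 95% limma interval for the 4 tested members and the named pathway genes. No gene shown passed the adjusted threshold, and Pdgfra, at -0.88, lies farthest from 0.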

How the data were processed

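RNA of each sample was hybridised, Cy3-labelled, to a 1-colour array. Spot intensity values were deposited by the authors as Agilent Feature Extraction 11.5.1.1 output, detrended spatially and multiplicatively within an array, per the file headers. The authors' deposited log2 value table equalled the log2 processed signal minus 1 constant per array (6.90 to 6.96, deviations up to 0.005); its column medians ran from -3.99 to -3.86.

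Here, log2 processed signal was centred on the 75th percentile of an array's non-control spots. Control and outlier spots were dropped and spots of a probe averaged. Probes measured on all 4 arrays and well above background on both arrays of a group were tested across all 26015 such probes in limma 3.58.1 (R 4.3.3; lmFit, eBayes with trend) with Benjamini-Hochberg adjustment. A gene was its brightest tested probe. No spot was saturated, and 45.9% to 52.1% of spots were well above background. The number of arrays limits the precision. The script was tested on simulated data. Figures used matplotlib 3.10.9.

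The members, lists and tests were chosen with earlier results of these data known. Named were Timp1, all members, called pathway genes, and per list up to 4 genes of smallest p that were well above background on every array. For each tested member the 3 nearest genes were named. One gene of the lists is not reported here by name.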

Additional observations from a re-analysis of the deposited data

How the results depend on the processing

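Alternatives were normexp background correction (offset 50), quantile normalization, a 75th percentile taken from detected probes alone, no filter or a stricter one, eBayes without a trend or robust, outlier spots kept, the authors' value table, the mean of a gene's probes, an adjusted p under 0.1 and the removal of single arrays, where limma takes the lone array to vary like the other group. The count of members called higher was 0 throughout. Members called lower numbered 0, and 0 to 1 when 1 array was left out, the 1 being Plaur without siControl replicate 1. Pathway genes higher numbered 0, and 0 to 3 when 1 array was left out, namely Itgb5 (named after its values were seen), Serpinb8 and Vldlr without siControl replicate 1. Pathway genes lower numbered 0, but 1 each with no filter, with robust eBayes and at an adjusted p under 0.1, and 0 to 3 when 1 array was left out. These were Pdgfra, Procr and Serpinb9 without siControl replicate 1, and Pdgfra alone without siControl replicate 2. Of 52 member values under alternatives 3 changed sign, none of them called: Plau without siControl replicate 2 (0.105) and without siTIMP1 replicate 1 (0.025), and Plaur without siControl replicate 2 (0.308). Of the 20 pathway genes followed through these settings S100a10 did (-0.001 with quantile normalization). The log2 fold change itself, not the expression ratio, moved by over 1.5 times in 9 of them when 1 array was left out. It did so in 3 of the 4 tested members. The other pathway genes were followed for calls alone. The cause was not tested. With no filter the median over all probes was 0.149. Over all probes, 179 passed in limma, but 458 with no filter, 310 with robust eBayes, 1323 and 392 without siControl replicate 1 and 2, and 0 without a trend or either siTIMP1 array (4216, 2920 and 2692 at an unadjusted p under 0.05). With 1 slide and 1 scan no block for them exists. No paired analysis was possible because siControl and siTIMP1 samples carry no shared replicate number. Signal near background limits what can be seen of Plg, Serpinb2 and Serpinf2.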
